A study of Mus musculus with 6 samples.

Results

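A set of 10 genes of the transforming growth factor beta (TGF-beta) and matricellular fibrosis programme was read in epididymal white adipose tissue of Pparg ldi/+ mice and of WT littermates. The genes were Tgfb1, Ccn2 (Ctgf in the older annotation), Tnc, Postn, Thbs1, Thbs2, Fn1, Sparc, Lox and Acta2. Every probe set annotated to one of these symbols and to no other gene was taken, which gave 22 of the 45101 probe sets of the array and 10 of its 18193 genes. Probe sets were assigned by annotation, and the 10 genes themselves were named with earlier results of these data known.

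Each of the 6 MOE430v2.0 expression arrays took RNA of 1 mouse. The first group was 3 males heterozygous for the ldi allele of Pparg, the gene of the nuclear receptor that directs fat cell formation, on a mixed C57BL6;129Sv background at 10 weeks of age. The second group was 3 litter-matched WT males of the same background, age and tissue. The labels describe the mutant mice as lipodystrophic and do not state which change the ldi allele carries, so the mutant animals are named by the allele alone. Whole fat pads were profiled. In such bulk tissue fewer cells of a type and less RNA per cell cannot be told apart, and the same holds for more of either.

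TGF-beta is secreted as a latent complex that is held in the extracellular matrix and released by integrins, proteases and thrombospondin. The active ligand signals through a pair of serine/threonine kinase receptors to SMAD transcription factors, which switch on matrix genes. Matricellular proteins such as thrombospondins, tenascins, CCN proteins and SPARC sit in the matrix and tune cell adhesion and growth factor activity rather than carry load. In adipose tissue this programme is known from the fibrosis that accompanies obesity and from the myofibroblast state of stromal cells, marked by smooth muscle actin.

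RefSeq promoter windows of assembly GRCm38.p6 were used for 6 of the 10 genes, in 8 windows because Tnc and Postn have more than 1 start site. Windows on 1 chromosome were not taken for the 10 genes, so a gene without a window here need not lack one. The 250 bases upstream of the start are printed for 4 genes, 2 whose signal passed the test below (Tgfb1 and Tnc) and 2 whose brightest probe set did not (Thbs2 and Acta2). Capitals mark matches on either strand. The letters CAGAC are the SMAD-binding element. The letters GGAATG are bound by TEAD factors. The letters TATAAA are those of the TATA box and were marked at any position in the window. The letters AGGTCA are the core of nuclear receptor sites. The CArG box of serum response factor was searched only in its strict form, CC, then 6 letters A or T, then GG. That form was not found in any of the 8 windows. Near matches were not searched for, such as ccctatatgg and ccttgtttgg in the Acta2 window.
Tgfb1, chr7:25686752-25687001, plus strand: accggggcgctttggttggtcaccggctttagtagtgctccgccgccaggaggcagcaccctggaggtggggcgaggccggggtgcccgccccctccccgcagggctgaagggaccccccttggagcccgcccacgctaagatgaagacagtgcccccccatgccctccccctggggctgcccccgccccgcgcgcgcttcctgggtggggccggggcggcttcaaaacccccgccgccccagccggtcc
Tnc, first start site, chr4:64047016-64047265, minus strand: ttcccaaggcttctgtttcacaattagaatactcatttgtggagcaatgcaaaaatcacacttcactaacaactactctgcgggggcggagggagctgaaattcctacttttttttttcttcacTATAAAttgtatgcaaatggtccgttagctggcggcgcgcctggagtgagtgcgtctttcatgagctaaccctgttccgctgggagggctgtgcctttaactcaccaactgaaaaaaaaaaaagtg
Thbs2, chr17:14694263-14694512, minus strand: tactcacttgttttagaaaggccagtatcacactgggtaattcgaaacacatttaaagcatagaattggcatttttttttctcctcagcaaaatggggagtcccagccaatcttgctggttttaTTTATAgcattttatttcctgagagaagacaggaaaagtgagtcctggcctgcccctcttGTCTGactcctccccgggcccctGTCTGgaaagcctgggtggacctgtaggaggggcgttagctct
Acta2, chr19:34255374-34255623, minus strand: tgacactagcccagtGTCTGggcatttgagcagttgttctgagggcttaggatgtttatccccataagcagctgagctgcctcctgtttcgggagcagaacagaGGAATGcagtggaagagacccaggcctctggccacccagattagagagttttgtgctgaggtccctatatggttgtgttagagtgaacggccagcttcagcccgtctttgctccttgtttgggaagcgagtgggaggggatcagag

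The Tgfb1 window held none of the searched motifs, and 75.2% of its bases were G or C, against 44.8% for Tnc, 46.8% for Thbs2 and 53.6% for Acta2. Tnc had TATAAA at positions -126 to -121 from its first start. The window of its second start, which overlaps the first and is not printed, had TATAAA at -205 to -200 and CAGAC on the opposite strand at -70 to -66. Thbs2 had the same letters on the opposite strand at -126 to -121 and CAGAC, also on the opposite strand, at -66 to -62 and at -43 to -39. Acta2 had CAGAC on the opposite strand at -235 to -231 and GGAATG at -146 to -141. Such matches are common. Of 32851 mouse promoter windows of the same length, 42.2% held CAGAC, 12.6% GGAATG, 12.4% TATAAA, 14% AGGTCA and 1.47% a strict CArG box. They describe letters, not binding.

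Signals are linear intensities after each array was scaled to a trimmed mean of 500, and differences are Pparg ldi/+ minus WT of log2(signal + 32). A gene was called when its limma p, adjusted over all 11201 genes tested, was below 0.05. The scaling factors lay between 2.12 and 2.49. Pparg itself averaged 1781 ± 104 in Pparg ldi/+ mice and 4605 ± 341 in WT mice (SD, n = 3 each), a 2.56-fold fall (limma adjusted p = 1.04e-05). Adipocyte markers were bright on all arrays, and 4 of 5 fell, namely Adipoq (-1.17), Lep (-1.15), Cidec (-2.00) and Lipe (-1.60). Fabp4 was not called (-0.15, limma adjusted p = 0.0761), at 27593 to 29382 in Pparg ldi/+ fat and 30493 to 32645 in WT fat. The summed signal of the 5 was 53196 to 60278 in Pparg ldi/+ fat and 99313 to 113302 in WT fat. The 12 macrophage markers all rose, with sums of 99684 to 103289 in Pparg ldi/+ fat and 40366 to 51483 in WT fat. Of 11 fibroblast and stromal markers, 4 rose and 3 fell, with sums of 93606 to 101556 in Pparg ldi/+ fat and 87759 to 92606 in WT fat. Without Pparg ldi/+ array 1, 1 of the stromal markers was called lower instead of 3. Mesothelial markers (6 of 9) and endothelial markers (6 of 9) fell. Epididymal epithelium markers were abundant on Pparg ldi/+ arrays 1 and 2, with sums of 23526 and 32130.2, and low on Pparg ldi/+ array 3, at 778, against 726 to 1389 on the WT arrays. Of the 7 tested, 4 were called higher, 3 of which passed the brightness filter only through the Pparg ldi/+ arrays, none without any 1 array other than Pparg ldi/+ array 3, and 7 without that one. The differences of the 10 genes and the calls of the list genes are therefore also given for Pparg ldi/+ array 3 alone against the 3 WT arrays. The part that these markers play in the differences of the 10 genes was not tested.

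Of the 10 genes, 4 rose in Pparg ldi/+ fat, namely Thbs1, Tnc, Ccn2 and Tgfb1, and none fell. The remaining 6, Postn, Acta2, Thbs2, Lox, Sparc and Fn1, did not pass the test. Among all genes tested 16.3% were called higher and 16.4% lower, and 32.7% in either direction, so 4 of 10 higher stands beside a large background. At an unadjusted limma p under 0.05 the counts were 6 higher and 0 lower. The share of all genes at that unadjusted threshold was not computed, here or for Pparg ldi/+ array 3 alone, so these counts have no background beside them. Signal on every Pparg ldi/+ array exceeded that on every WT array for 6 of the 10 genes, and the groups overlapped for 4, whereas of all genes tested 47.6% did not overlap, 23.6% with every Pparg ldi/+ array above and 24% with every one below. The median difference of the 10 genes was 0.31, against -0.0043 over all genes tested. Quantile normalization called 2 further genes higher, Acta2 (0.19, limma adjusted p = 0.0496) and Sparc (0.17, limma adjusted p = 0.0389), the second with its sign turned. Of the 22 probe sets, 19 were bright enough to test, and 6 were called higher and 0 lower (0 lower also at an unadjusted limma p under 0.05), where 14.5% of the 22519 probe sets tested were called in each direction and 29% in either. One of the 6, the dimmer Acta2 set, passed the brightness filter only through the Pparg ldi/+ arrays. Without WT array 3, 2 member probe sets, 1 of Fn1 and 1 of Sparc, were called lower.

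**Figure D1:**
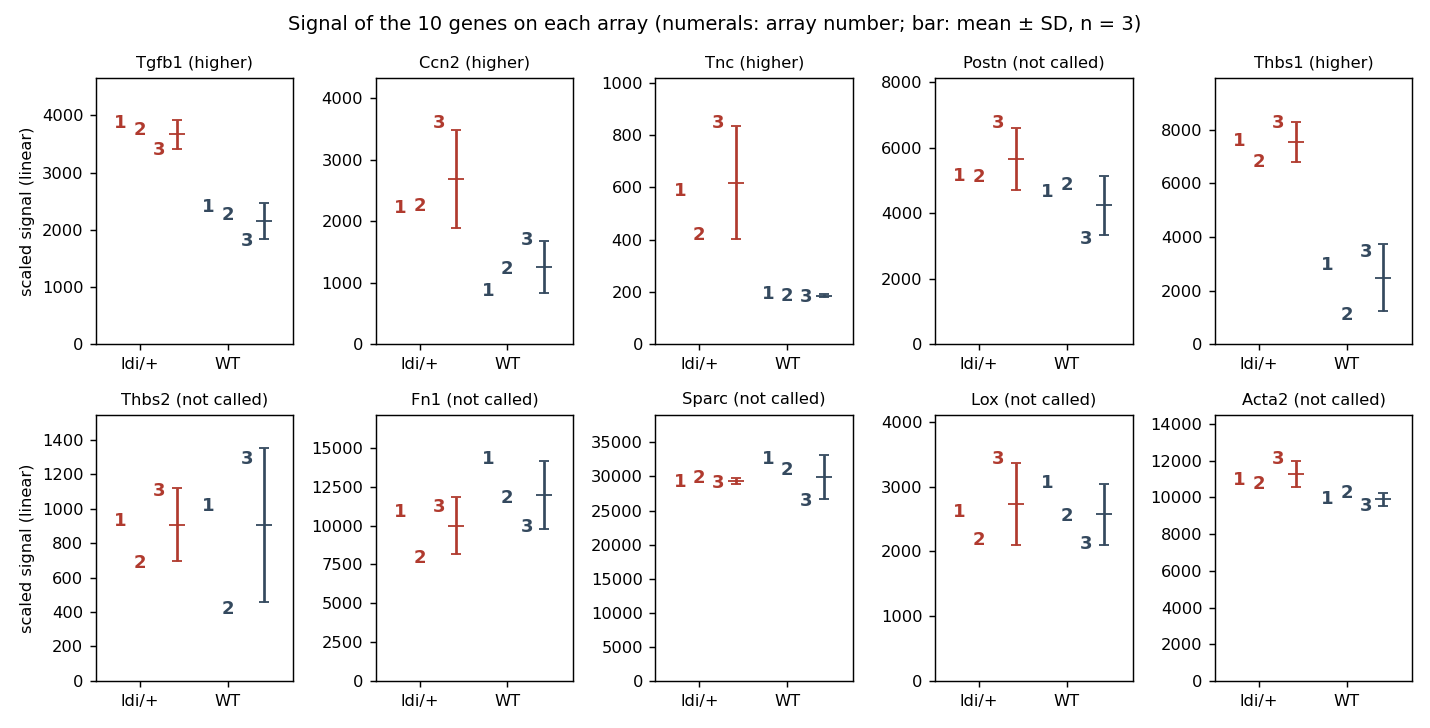
Scaled linear signal (y axis, from 0) of each of the 10 genes on the 3 Pparg ldi/+ arrays (red, left) and the 3 WT arrays (dark, right). Numerals mark the array number and bars the mean ± SD (n = 3). Thbs1, Tnc, Ccn2 and Tgfb1 were called higher, and their groups do not overlap.

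Tgfb1 encodes the main TGF-beta ligand. Its signal was 3872, 3751 and 3390.2 on the Pparg ldi/+ arrays and 2402, 2253 and 1798 on the WT arrays. All Pparg ldi/+ arrays lay above all WT arrays, and the spread within each genotype was small. The means were 3671 ± 251 in Pparg ldi/+ fat and 2151 ± 315 in WT fat (SD, n = 3 each), a 1.71-fold rise. The log2 difference was 0.77 with SE 0.115 and a 95% interval of 0.51 to 1.03 (limma adjusted p = 0.00114). It ranked at percentile 92.7 of the differences of all tested genes. The other Tgfb1 probe set, 1445360_at, was much dimmer, with 263, 305 and 269.6 on the Pparg ldi/+ arrays and 227, 249 and 227 on the WT arrays. It too was higher on every Pparg ldi/+ array, but its difference of 0.22 (-0.09 to 0.53) was not called (limma adjusted p = 0.262). The responses of the 2 sets differed by 0.55 (exact two-sided permutation p = 0.1, the smallest that 3 against 3 arrays can give). On array 3 alone the Tgfb1 difference was 0.66 and not called (limma adjusted p = 0.0534).

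The other ligands were not called. Tgfb2 had 211, 299.8 and 414 on the Pparg ldi/+ arrays and 137, 189 and 251 on the WT arrays, a difference of 0.59 with overlap between groups (limma adjusted p = 0.126). Tgfb3 differed by 0.13 (-0.12 to 0.37, limma adjusted p = 0.414). Tgfb2 was called as well with the replicate number as a block. Whether the Tgfb1 difference exceeded that of Tgfb2 or Tgfb3 was not tested.

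Ccn2 encodes connective tissue growth factor, a secreted matricellular protein and a common read-out of TGF-beta and of the YAP/TEAD pathway. Its signal was 2214, 2247 and 3605 on the Pparg ldi/+ arrays and 863, 1217 and 1696 on the WT arrays. The groups did not overlap, though Pparg ldi/+ array 3 stood well above its group and WT array 3 came closest to the mutant arrays. The means were 2689 ± 794 in Pparg ldi/+ fat and 1259 ± 418 in WT fat (SD, n = 3 each), a 2.13-fold rise. The log2 difference was 1.09 with SE 0.254 and an interval of 0.51 to 1.67 (limma adjusted p = 0.0109). Array 3 alone gave 1.55, which was called (limma adjusted p = 0.0184).

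Thbs1 encodes thrombospondin-1, which activates latent TGF-beta and binds the receptors CD36 and CD47. With all 6 arrays its difference was the largest of the 10 genes, but Tnc exceeded it without WT array 2 (1.53 for Tnc, 1.24 for Thbs1) and on Pparg ldi/+ array 3 alone (2.02 for Tnc, 1.88 for Thbs1). Its signal was 7586, 6790.05 and 8267 on the Pparg ldi/+ arrays and 2942, 1082 and 3432 on the WT arrays. The lowest Pparg ldi/+ array was well above the highest WT array, and WT array 2 was far below the other WT arrays. The means were 7548 ± 739 in Pparg ldi/+ fat and 2485 ± 1239.9 in WT fat (SD, n = 3 each), a 3.35-fold rise. The log2 difference was 1.74 with SE 0.36 and an interval of 0.92 to 2.57 (limma adjusted p = 0.00616), at percentile 98.4 of all tested genes. Without WT array 2 the difference was 1.24, still called (limma adjusted p = 0.000305). The second probe set, 1450377_at, read 4686, 3947 and 5538 on the Pparg ldi/+ arrays and 1928, 779.6 and 2148 on the WT arrays, the same order of arrays within each genotype. Its difference was 1.64 (0.90 to 2.37), and it rose as well (limma adjusted p = 0.00495). The 2 Thbs1 sets differed from each other by 0.11 in their response (exact two-sided permutation p = 0.4). On array 3 alone the difference was 1.88 and not called (limma adjusted p = 0.0639), while 1450377_at gave 1.88 and was called (limma adjusted p = 0.0449).

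Platelets also carry thrombospondin-1. Of 4 tested platelet markers only Pf4, which macrophages of some tissues also express, was called higher, with a difference of 1.14 (limma adjusted p = 0.000463). Itga2b, the platelet integrin chain, read 210, 307 and 346 on the Pparg ldi/+ arrays and 226, 265 and 251 on the WT arrays, with overlap. Gp9 was too dim to test, at 8.66 to 20.2 on the Pparg ldi/+ arrays and 17.6 to 23.4 on the WT arrays. The part of platelets in the Thbs1 difference was not tested.

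Thbs2 encodes the related thrombospondin-2, which lacks the TGF-beta-activating sequence of Thbs1 and limits blood vessel growth. Its brightest probe set read 931, 684 and 1104 on the Pparg ldi/+ arrays and 1013, 416 and 1286 on the WT arrays. The groups overlapped fully, and array 2 was the lowest in both. The means were 906 ± 211 in Pparg ldi/+ fat and 905 ± 445 in WT fat (SD, n = 3 each). The log2 difference was 0.11 with a wide interval of -0.71 to 0.93 (limma adjusted p = 0.837), which spans changes of either sign. A second set, 1450663_at, read 691, 582 and 983 on the Pparg ldi/+ arrays and 560.3, 344 and 579 on the WT arrays. Every Pparg ldi/+ array lay above every WT array there, but the difference of 0.58 (0.06 to 1.10) was not called (limma adjusted p = 0.0941). The remaining set, 1447862_x_at, gave 0.24 (-0.43 to 0.92).

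The paralogs were set against each other within each array. The log2 ratio of the Thbs1 to the Thbs2 probe set was 2.98, 3.25 and 2.87 on the Pparg ldi/+ arrays and 1.51, 1.32 and 1.39 on the WT arrays. These ratios were tight within each genotype and did not overlap, although WT array 2 was low for both genes. The 2 responses differed by 1.63 on the log2 scale, again with the smallest possible exact two-sided permutation p of 0.1. Only the brightest set of each gene was used. Thbs2 set 1450663_at, with the larger difference of 0.58, was not set against Thbs1.

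Tnc encodes tenascin-C, a matricellular glycoprotein that is scarce in most adult tissue and appears in wounds and tumours. Its signal was 588, 418 and 847 on the Pparg ldi/+ arrays and 191, 185 and 180.4 on the WT arrays. The WT arrays were nearly identical, and the Pparg ldi/+ arrays were all higher and spread widely. The means were 618 ± 216 in Pparg ldi/+ fat and 185 ± 5.17 in WT fat (SD, n = 3 each), a 2.88-fold rise. The log2 difference was 1.53 with SE 0.224 and an interval of 1.02 to 2.04 (limma adjusted p = 0.00105). Array 3 alone gave the larger value of 2.02, which was called. A second Tnc probe set, 1456344_at, was too dim to test, with 7.43 to 59.3 on the Pparg ldi/+ arrays and 6.48 to 55.8 on the WT arrays.

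Postn encodes periostin, a fasciclin-domain protein secreted by activated fibroblasts. Its signal was 5135, 5103 and 6761 on the Pparg ldi/+ arrays and 4652, 4862 and 3204 on the WT arrays. All Pparg ldi/+ arrays were above all WT arrays, by a narrow margin on arrays 1 and 2. The means were 5666 ± 948 in Pparg ldi/+ fat and 4239 ± 903 in WT fat (SD, n = 3 each). The log2 difference was 0.43 with an interval of 0.04 to 0.81, which did not pass the test over all genes (limma adjusted p = 0.087). Without WT array 3 it was 0.24.

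Fn1 encodes fibronectin, the fibrillar glycoprotein on which TGF-beta complexes and collagen assemble. Its signal was 10886, 7891 and 11208 on the Pparg ldi/+ arrays and 14261, 11792 and 9907 on the WT arrays. The groups overlapped, with the lowest value on a Pparg ldi/+ array and the highest on a WT array. The difference was -0.26 (-0.63 to 0.10) and not called (limma adjusted p = 0.251). The second set, 1437218_at, gave -0.37 (-0.73 to 0.00, limma adjusted p = 0.129), and without WT array 3 it was called lower, at -0.50 (limma adjusted p = 0.0484). The log2 ratio of Tnc to Fn1 differed between genotypes by 1.79, again with the smallest possible exact permutation p of 0.1. It is built from the differences of both genes on these same arrays, so it is no further support for either. A ratio of Ccn2 to Lox differed by 1.01 (exact two-sided permutation p = 0.1).

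Sparc encodes osteonectin, a collagen-binding matricellular protein that fat tissue makes in quantity. Its signal was 29142.5, 29795 and 29108 on the Pparg ldi/+ arrays and 32495, 30885 and 26384 on the WT arrays. The Pparg ldi/+ arrays lay within the range of the WT arrays. The difference was -0.02 with a narrow interval of -0.21 to 0.16 (limma adjusted p = 0.859). Its sign was not fixed, since it was 0.17 and called after quantile normalization (limma adjusted p = 0.0389) and 0.03 on unscaled values. The other sets, 1448392_at and 1458204_at, gave -0.09 and -0.29 and were not called. Without WT array 3, 1448392_at was called lower at -0.17 (limma adjusted p = 0.0485).

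Lox encodes lysyl oxidase, the copper enzyme that crosslinks collagen and elastin. Its signal was 2617, 2176 and 3422 on the Pparg ldi/+ arrays and 3060.2, 2544 and 2114 on the WT arrays. The groups were interleaved, and array 3 was the highest in Pparg ldi/+ fat and the lowest in WT fat. The difference was 0.08 (-0.32 to 0.49, limma adjusted p = 0.768), and it was -0.09 without Pparg ldi/+ array 3 and -0.05 without WT array 3. A second set, 1416121_at, gave 0.04 and was not called (limma adjusted p = 0.884). The remaining set was too dim to test.

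Acta2 encodes smooth muscle alpha-actin, the actin of vessel walls and of myofibroblasts. Its brightest set, 1416454_s_at, read 10960, 10749 and 12073 on the Pparg ldi/+ arrays and 9939, 10248 and 9523 on the WT arrays. All Pparg ldi/+ arrays were higher, by little. The means were 11261 ± 711 in Pparg ldi/+ fat and 9903 ± 364 in WT fat (SD, n = 3 each), and the difference of 0.18 (0.02 to 0.34) was not called (limma adjusted p = 0.0757). A dimmer set, 1444105_at, read 191, 212 and 217 on the Pparg ldi/+ arrays and 87, 124 and 123 on the WT arrays. Its difference of 0.75 (0.33 to 1.16) was called (limma adjusted p = 0.0143), but the set passed the brightness filter only through the Pparg ldi/+ arrays, where it was higher, so the call is no support for a rise. It was called without that filter (limma adjusted p = 0.0465), and it was too dim to test without any 1 Pparg ldi/+ array or on array 3 alone. The responses of the 2 Acta2 sets differed by 0.56 (exact two-sided permutation p = 0.1, the smallest possible). Acta2 was also called with quantile normalization (0.19), with the mean of its probe sets, the dimmer one included (0.31), and with its most variable set, the same dimmer one (0.75). Summed smooth muscle markers were 15268 to 15895 on the Pparg ldi/+ arrays and 13959.8 to 16464 on the WT arrays, and of the 9 tested 1 rose (Tagln) and 1 fell (Mylk). These counts were 2 higher and 1 lower without Pparg ldi/+ array 3, 1 and 2 without WT array 1, 2 and 2 without WT array 3, 1 and 0 without Pparg ldi/+ array 2, and 0 and 0 on array 3 alone.

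**Figure D2:**
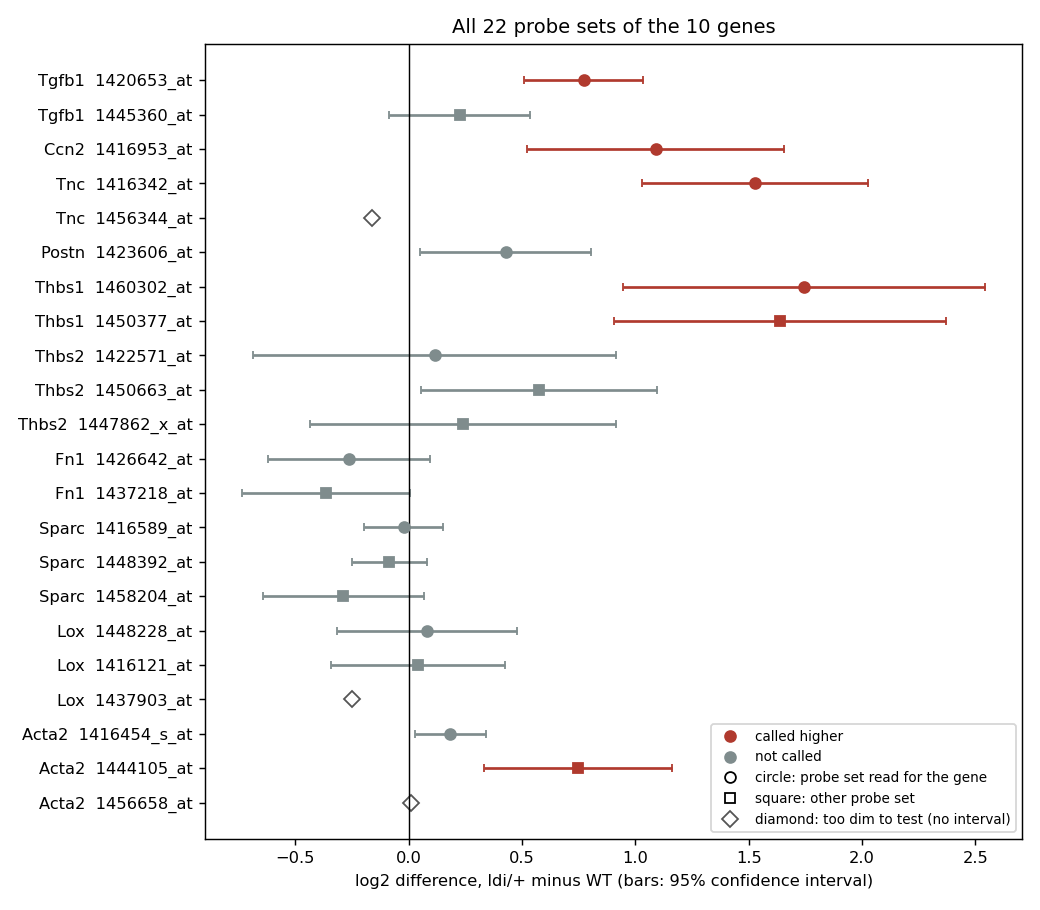
Log2 difference, Pparg ldi/+ minus WT (x axis), of all 22 probe sets of the 10 genes (y axis), with 95% intervals. Both Thbs1 sets lie far right of 0, while the Tgfb1 sets and the Acta2 sets sit apart from each other within the gene. Open diamonds are the 3 sets too dim to test.

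The genes also shared a pattern among arrays of the same genotype. Pparg ldi/+ array 3 was the highest of its group for 8 of the 10 genes, all but Tgfb1 and Sparc, where 34% of all tested genes had that array highest. Pparg ldi/+ array 2 was the lowest for 7 of the 10 (36.2% of all genes), and WT array 3 was the lowest of its group for 7 (32.3% of all genes). The thrombospondins had another order, with WT array 2 at -1.02 for Thbs1 and -0.93 for Thbs2 from the WT mean, and WT array 3 at 0.62 and 0.63. Ccn2 ran from -0.48 on WT array 1 to 0.47 on WT array 3. Acta2 and Sparc varied by no more than 0.10 and 0.18 on any array. The arrays carry few values per gene, so this is a description without a test.

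**Figure D3:**
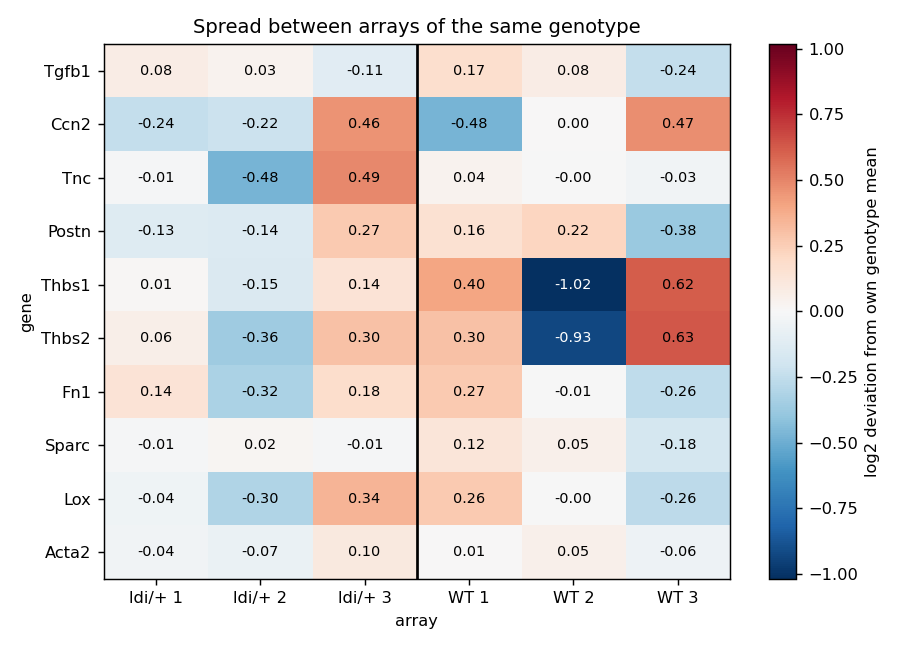
Log2 deviation of each array (x axis) from the mean of its own genotype for each of the 10 genes (y axis), as a colour scale with the value printed. Blue cells on WT array 2 mark Thbs1 (-1.02) and Thbs2 (-0.93), and the column of Pparg ldi/+ array 3 is red for most genes.

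Set against the 3 WT arrays by itself, Pparg ldi/+ array 3, which lacked the epididymal transcripts, left 2 of the 10 genes called higher, Tnc (2.02) and Ccn2 (1.55). Over all genes that comparison called 6.54% higher and 7.94% lower of 11161 tested, since a single array stands for the group and is assumed to vary like the WT arrays. At an unadjusted limma p under 0.05, 6 of the 10 genes were higher or lower. The median difference was 0.54. The differences of Tgfb1 (0.66) and Thbs1 (1.88) kept their size but missed the threshold. Postn gave 0.69, Lox 0.42, Thbs2 0.42, Acta2 0.29, Sparc -0.03 and Fn1 -0.08, and none of these 6 was called. The other probe sets gave 0.18 for Tgfb1, 0.98 and 0.38 for Thbs2, -0.25 for Fn1, -0.07 and -0.17 for Sparc and 0.36 for Lox there, none called.

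**Figure D4:**
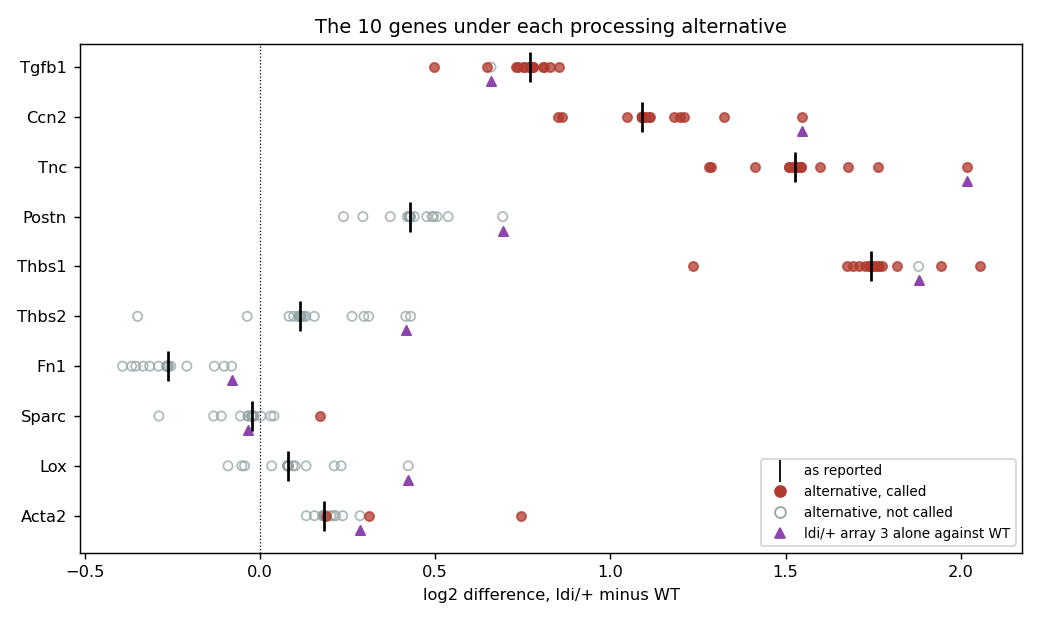
Log2 difference, Pparg ldi/+ minus WT (x axis), of the 10 genes (y axis) as reported (black bars) and under each alternative way of processing (filled when called). Triangles show Pparg ldi/+ array 3 alone against WT. Thbs1, Tnc, Ccn2 and Tgfb1 stay right of 0 throughout, while values of Sparc, Lox and Thbs2 fall on both sides of it.

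Among close relatives of the 10 genes, the CCN family moved in both directions. Ccn1 (Cyr61), a relative of Ccn2 that YAP/TEAD also drives, read 1499, 1163 and 1624 on the Pparg ldi/+ arrays and 663, 702 and 868 on the WT arrays, and rose by 0.91 (limma adjusted p = 0.00181). Ccn4 was called at 0.84 (limma adjusted p = 0.0418) but passed the brightness filter only through the Pparg ldi/+ arrays, and without that filter it was not called (limma adjusted p = 0.0774). The call also ended without WT array 1 (0.93), WT array 2 (0.68) or WT array 3 (0.92). Without Pparg ldi/+ array 2 or 3, and on array 3 alone, it was too dim to test. Ccn3 fell by 0.81 (limma adjusted p = 0.00937), and Ccn5 was not called (0.27). With the mean of all probe sets Ccn1 gave 0.53 and was not called (limma adjusted p = 0.103).

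Tenascins split in the same manner. Tnxb, the tenascin of loose connective tissue, read 2179, 2191 and 2679 on the Pparg ldi/+ arrays and 3842, 3481 and 3193 on the WT arrays, and fell by 0.57 (limma adjusted p = 0.0036) where Tnc rose. Tnn and Tnr were too dim to test. Of 3 thrombospondin genes tested, Thbs1 alone was called, and Thbs3 differed by -0.30 (limma adjusted p = 0.0845). The fasciclin-domain relative of Postn, Tgfbi (TGF-beta-induced protein), read 5036, 4958 and 6190.1 on the Pparg ldi/+ arrays and 3161, 2343 and 2923 on the WT arrays. It rose by 0.94 (limma adjusted p = 0.000723), with no overlap.

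Relatives of Sparc fell or were not called. Of 6 tested in that family none was higher (0 also at an unadjusted limma p under 0.05, though quantile normalization called Sparc higher) and 2 were lower, Smoc1 at -0.90 (limma adjusted p = 0.00146) and Smoc2 at -0.61 (limma adjusted p = 0.00035). Both encode secreted calcium-binding matrix proteins. No lysyl oxidase gene was called among 4 tested, in either direction, and none had an unadjusted limma p under 0.05. Of 4 fibulins 3 fell, with Fbln5, an elastic fibre assembly protein, at 1297, 1215 and 1339 on the Pparg ldi/+ arrays and 3031, 2826 and 3027 on the WT arrays. Its difference was -1.19 (limma adjusted p = 1.4e-05), and the groups were far apart. Fbln2 fell by 0.67 (limma adjusted p = 0.0124) and Efemp1 by 0.31 (limma adjusted p = 0.00972), and both missed the threshold on array 3 alone, at -0.43 and -0.30.

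The wider TGF-beta pathway was read from lists chosen for their role. Among the latent complex genes and other ligands, 2 of 9 tested rose and 2 fell, with a median of 0.16. Nrros, which tethers latent TGF-beta on macrophages and microglia, read 2243, 2379 and 2298 on the Pparg ldi/+ arrays and 1132, 879 and 805 on the WT arrays, a rise of 1.28 (limma adjusted p = 0.000104). It moved beside the macrophage markers given above, and their part in it was not tested. The latent TGF-beta binding proteins divided, since Ltbp2 rose by 1.04 (limma adjusted p = 0.00131) while Ltbp3 and Ltbp4 fell by 0.78 and 0.71 (limma adjusted p = 0.0013 and 0.000306). Ltbp2 is the member that does not bind latent TGF-beta itself. All 4 of these calls remained on array 3 alone.

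Both signalling receptors rose. Tgfbr1 read 2624, 2833 and 2684 on the Pparg ldi/+ arrays and 1660.1, 1493 and 1668 on the WT arrays, a difference of 0.75 (limma adjusted p = 0.000194). Tgfbr2 rose by 0.52 (limma adjusted p = 0.00133). The co-receptor Tgfbr3 (betaglycan) fell by 0.42 (limma adjusted p = 0.0137), a call that ended without Pparg ldi/+ array 3 (-0.38), and a second gene of this list was called lower without Pparg ldi/+ array 1. The list's median was -0.21 over 6 genes, with 2 higher and 1 lower.

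Of 12 SMAD genes and regulators, 2 rose and 5 fell, with a median of -0.21. Smad3, the receptor-activated SMAD that carries much of the fibrotic response, read 1179, 1056 and 1242 on the Pparg ldi/+ arrays and 764, 784 and 685 on the WT arrays, a rise of 0.62 (limma adjusted p = 0.00194). Tgif1, a SMAD co-repressor, rose by 0.99 (limma adjusted p = 0.00117). Smad6, an inhibitory SMAD, read 573, 471 and 331 on the Pparg ldi/+ arrays and 1051, 1201 and 913 on the WT arrays, a fall of 1.17 (limma adjusted p = 0.00168). Pmepa1, a membrane protein that sequesters SMADs and is itself a TGF-beta target, fell by 1.10 (limma adjusted p = 0.00272). Smad4 (-0.34), Smurf1 (-0.47) and Zfyve9 (-0.45) were the other 3 called lower. The number lower was 2 without Pparg ldi/+ array 1 or 2 and 3 without WT array 2 or 3, and 2 on unscaled values. Smad7, the inhibitory SMAD most used as a TGF-beta read-out, was not called, at -0.05 (-0.37 to 0.28, limma adjusted p = 0.834).

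Of 8 TGF-beta response genes tested 3 rose, namely Tgfbi, Ccn1 and Fstl3 (0.65, limma adjusted p = 0.0468). None fell, and the median was 0.59. At an unadjusted limma p under 0.05 the counts were 4 higher and 0 lower. Inhba, among the 8 and not called, passed the brightness filter only through the Pparg ldi/+ arrays. Without that filter 10 genes of the list were tested, 2 were higher and 0 lower, and the median was 0.33. Klf10 and Tsc22d1, early TGF-beta target genes, differed by 0.04 and 0.01. Without Pparg ldi/+ array 1 or 3 the number higher was 2. The Fstl3 call ended under 11 of the 20 alternatives. Among these were leaving out Pparg ldi/+ array 1 (0.71) or 3 (0.47) and WT array 1 (0.48) or 3 (0.62). Among the extracellular antagonists, a list that also holds Fstl3, 3 of 10 rose and 1 fell, with a median of 0.10. Fst (follistatin), which binds activins, was 2029, 2012 and 1846 on the Pparg ldi/+ arrays and 281, 399.7 and 606 on the WT arrays, a 4.51-fold rise (log2 difference 2.17, limma adjusted p = 0.000142). Emilin1, which blocks the processing of the TGF-beta precursor, rose by 0.97 (limma adjusted p = 0.00778). The protease gene Htra1 fell by 0.40 (limma adjusted p = 0.00199). Antagonists called higher numbered 2 without Pparg ldi/+ array 1 or 3 or without WT array 3. Without WT array 1 a second antagonist was called lower, and on array 3 alone none was.

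**Figure D5:**
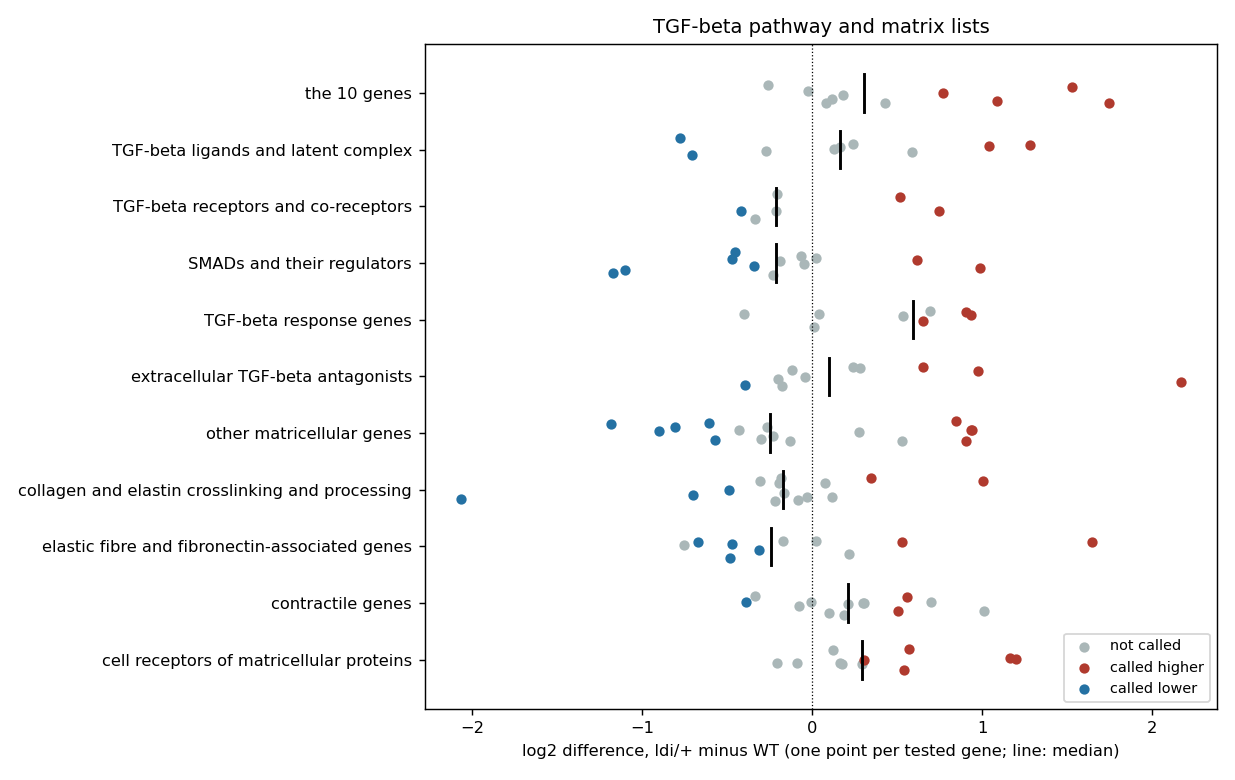
Log2 difference, Pparg ldi/+ minus WT (x axis), of every tested gene of the 10 genes and of each pathway or matrix list (y axis). Red points were called higher, blue points lower and grey points were not called, and the black line is the list's median. Called genes lie on both sides of 0 in 8 of the 10 lists other than the 10 genes.

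The other matricellular genes were divided, with 4 of 16 tested called higher (Ccn4 among them), 5 lower and a median of -0.25. Besides the family members above, Mgp (matrix Gla protein, an inhibitor of calcification) read 13147, 12763 and 15815 on the Pparg ldi/+ arrays and 6509, 6688 and 8585.5 on the WT arrays, a rise of 0.94 (limma adjusted p = 0.00056). Of 14 collagen and elastin crosslinking and processing genes 2 rose and 3 fell, with a median of -0.17. The procollagen C-proteinase enhancers went opposite ways, since Pcolce read 7605, 7643 and 7886 on the Pparg ldi/+ arrays and 3837, 3450 and 4227 on the WT arrays, a rise of 1.01 (limma adjusted p = 4.84e-05). Pcolce2 read 357, 366 and 392 on the Pparg ldi/+ arrays and 1683, 2132 and 1272 on the WT arrays, a 4.19-fold fall (log2 difference -2.07, limma adjusted p = 4.43e-05). The collagen hydroxylase gene Plod1 fell by 0.70 (limma adjusted p = 0.00142), as did Serpinh1, the collagen chaperone, by 0.49 (limma adjusted p = 0.0137), and Plod2 rose by 0.35 (limma adjusted p = 0.0391). The Plod2 call ended without Pparg ldi/+ array 1 (0.36), 2 (0.36) or 3 (0.31) and without WT array 1 (0.37) or 2 (0.26).

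Of 10 elastic fibre and fibronectin-associated genes 2 rose and 4 fell, with a median of -0.24. Vtn (vitronectin, an adhesive glycoprotein of matrix and plasma) read 2648, 2632 and 2612 on the Pparg ldi/+ arrays and 859, 804 and 794 on the WT arrays, a 3.13-fold rise (log2 difference 1.65, limma adjusted p = 2.73e-06) with little spread in either genotype. Mfap2, a microfibril protein, rose by 0.53 (limma adjusted p = 0.00568). The 4 called lower were Fbln2, Efemp1, Eln (elastin, -0.48) and Nid1 (nidogen-1, -0.47). Their number was 2 without Pparg ldi/+ array 1 or without WT array 1 or 2, 2 on unscaled values, and 0 on array 3 alone.

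Of 13 contractile genes tested, a list that does not hold Acta2, 2 rose and 1 fell, with a median of 0.21. Tagln (SM22), an early smooth muscle and myofibroblast gene, read 2955, 3071 and 3535 on the Pparg ldi/+ arrays and 1913, 2228 and 2607 on the WT arrays, a rise of 0.50 (limma adjusted p = 0.0128). Palld (palladin, an actin-bundling protein) rose by 0.56 (limma adjusted p = 0.0434), a call that ended without any Pparg ldi/+ array (0.60, 0.60 and 0.48 without arrays 1, 2 and 3) and without WT array 1 (0.60) or 3 (0.34). Mylk (myosin light chain kinase) fell by 0.39 (limma adjusted p = 0.0185), which ended without Pparg ldi/+ array 2 (-0.33), and without WT array 1 a second gene was called lower. Neither direction was called for any of the 13 on array 3 alone.

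Of 11 cell receptors of matricellular proteins 5 rose and none fell (6 higher and 1 lower at an unadjusted limma p under 0.05), with a median of 0.29. Sdc1 (syndecan-1, a heparan sulphate proteoglycan that binds thrombospondin and tenascin) read 2084, 1619.6 and 1984 on the Pparg ldi/+ arrays and 918, 803 and 700.2 on the WT arrays, a rise of 1.20 (limma adjusted p = 0.000199). Stab1, the macrophage scavenger receptor that takes up SPARC, rose by 1.17 (limma adjusted p = 0.00227). Sdc4 (0.57), Itga9 (0.54) and Cd47 (0.30) made up the rest of the 5. Cd36, a thrombospondin-1 receptor that adipocytes and endothelium also carry, differed by -0.21 and was not called (limma adjusted p = 0.0508). The number higher was 2 without Pparg ldi/+ array 1 or WT array 3 and 3 without Pparg ldi/+ array 3 or WT array 2. One gene of the list was called lower without WT array 3, after quantile normalization, with the brighter 30% of probe sets, with array weights, with the mean of all probe sets and with the most variable probe set.

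On Pparg ldi/+ array 3 alone against the WT arrays, fewer list genes were called, as over the whole array. The counts there were 1 higher and 1 lower for the receptors, 2 and 1 for the SMADs and their regulators, 2 and 0 for the response genes and 2 and 0 for the antagonists. They were 3 and 3 for the other matricellular genes, 1 and 2 for crosslinking and processing, 2 and 0 for elastic fibre genes and 3 and 0 for the cell receptors. Named genes that missed the threshold there were Tgfbr2 (0.46), Tgfbr3 (-0.51), Ccn3 (-0.64), Tnxb (-0.38), Pmepa1 (-1.02), Htra1 (-0.34), Serpinh1 (-0.42), Plod2 (0.42), Tagln (0.66), Palld (0.72), Mylk (-0.35), Fstl3 (1.01), Sdc4 (0.58), Cd47 (0.16), Smad4 (-0.21), Smurf1 (-0.40), Zfyve9 (-0.25), Eln (-0.21) and Nid1 (-0.59). None of these turned its sign. The receptor list gene counted as lower there was Eng (-0.65), which was not called with all arrays. Called in the same direction there were Ccn1 (1.10), Tgfbi (1.14), Tgfbr1 (0.73), Smad3 (0.72), Tgif1 (1.11), Smad6 (-1.57), Fst (2.09), Emilin1 (1.17), Mgp (1.13), Smoc1 (-1.14), Smoc2 (-0.56) and Fbln5 (-1.13). So were Pcolce (1.04), Pcolce2 (-2.00), Plod1 (-0.72), Vtn (1.64), Mfap2 (0.66), Sdc1 (1.27), Stab1 (1.43), Itga9 (0.83) and the platelet and macrophage gene Pf4 (1.33). Tgfb2 (1.02) and Tgfb3 (0.24) were not called.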

How the data were processed

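Each array was deposited as a column of linear intensity values per probe set, made with MAS5 per the submitters' processing notes, which name it for 2 of the 6 samples without a version. The sources used here state neither its scaling target nor detection calls. From the deposited intensities each of the 6 arrays was brought to a trimmed mean of 500 (2% trimmed at each end), 32 was added and log2 taken. The offset shrinks differences of dim genes. No depth exists for arrays, and 3 per group limits the precision. The mice were separate animals.

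A gene was read through its brightest probe set. Sets marked _x_at were left out where another existed, while sets marked _s_at were kept. Genes below the median probe set mean were not tested. Symbols came from the platform annotation, updated through RefSeq (GRCm38.p6). Genotypes were tested in R 4.3.3 by limma 3.58.1 (intensity trend, two-sided, Benjamini-Hochberg over all genes, or over all probe sets for probe set values, threshold 0.05). The procedure was tested on simulated data. Single ratios used exact permutation tests. Figures used matplotlib 3.10.9.

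The members and lists were chosen with earlier results of these data known. Named were all members, any gene of lists of 12 or fewer, and of longer lists the 3 called genes with the smallest p in each direction plus relatives of members. Replicate numbers of the titles were not taken as pairs. The correlations of their deviations were -0.127, -0.0857 and -0.0945, which cannot show whether mice of the same number shared a litter. The 20 alternatives varied offset, scaling, filter, variance model, probe set choice, threshold, block and arrays. A search of the proteins for adhesion motifs was not run.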

Additional observations from a re-analysis of the deposited data

Results flagged for a closer look

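A further probe set is annotated to both Pald1 and Thbs1 and was therefore kept out of the comparisons. It read 7135, 6390.04 and 7129 on the Pparg ldi/+ arrays and 3007, 1669 and 3553 on the WT arrays, with WT array 2 again the lowest. Its log2 difference was 1.38, a 2.61-fold higher signal in Pparg ldi/+ fat with an interval of 0.86 to 1.91 (limma adjusted p = 0.00197). It stands out because it is a signal in data that the 22 probe sets do not include. The annotation does not say which of the 2 genes it reads.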

How the results depend on the processing

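Under the 20 alternatives, Thbs1, Tnc, Ccn2 and Tgfb1 kept their direction, although Tnc was too dim to test under 2 of them (the mean of all probe sets and the brighter 30% of probe sets). Leaving out 1 array at a time, Thbs1 ranged from 1.24 to 2.05, Tnc from 1.28 to 1.76, Ccn2 from 0.85 to 1.33, Tgfb1 from 0.65 to 0.85 and Postn from 0.24 to 0.54, and 4 of the 10 genes were called each time. Pparg ldi/+ array 3 alone called 730 genes higher and 886 lower, 2 of the 10 genes and 3 of their probe sets, with fewer arrays in the fit. An adjusted p of 0.01 left 1085 genes higher and 1153 lower, and among the 10 it ended the call of Ccn2. Without 1 array, 0 to 2 probe sets of the 10 genes were called lower. Values whose sign turned were those of Sparc (0.17 with quantile normalization, 0.031 unscaled, and -0.11 to 0.040 leaving out 1 array, above 0 without WT array 1 or 2), Lox (-0.044 with the mean of all probe sets, and -0.091 to 0.23 leaving out 1 array, below 0 without Pparg ldi/+ array 3 or WT array 3) and Thbs2 (-0.35 to 0.43 leaving out 1 array, below 0 without Pparg ldi/+ array 3 or WT array 2). The cause was not tested. Acta2 passed the threshold under 3 alternatives. The replicate number, which is not known to pair these mice, was also used as a block. Then 4 of the 10 genes and 7 of their probe sets were called higher, against 1568 higher and 1598 lower among all genes. Dim probe sets of Tnc, Lox and Acta2 could not be read.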
